A study of Saccharomyces cerevisiae with 20 samples.

Results

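Yeast cells arrested in G1 by alpha factor were compared with the unsynchronised cultures they came from, in a wild-type and a set1Δ strain of Saccharomyces cerevisiae. The comparison takes 4 of the 20 libraries of the series: asynchronous WT, asynchronous set1Δ, and both strains at 0 min, when the pheromone had just been washed out. WT is the mating type a strain W303a, and the second strain, labelled delta_set1, lacks SET1, which encodes the methyltransferase of histone H3 lysine 4. Both were grown in rich YPD medium at 30 °C, and the arrested cells had been held in 5 µg/ml alpha factor for about 2 h, until at least 95% showed no bud under the microscope. The other 16 libraries follow the cells at intervals of 15 min from 15 to 120 min after release. Each strain and state is 1 library from 1 culture, so the 2 strains stand in for replicates. A p-value here sets the mean arrest effect of the 2 strains against its spread, estimated between them and borrowed in part across features.

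Of 6532 features counted, 5070 had a mean of at least 10 reads in the 4 libraries and were tested, 4957 of them matching 1 annotated gene. Of the tested features, 70 (1.38%) were higher and 69 (1.36%) lower at 0 min at an adjusted p under 0.05, by edgeR's quasi-likelihood test with strain as the pair. A gene was counted as moving alike when it was called, changed at least 2-fold in the same direction in each strain on the log2(CPM + 1) scale, matched 1 gene, and was not on a list of 57 mating and pheromone response genes, which was set aside. That left 32 genes higher alike and 68 lower alike. Among the 70 higher features, 28 were on the mating list, 9 did not match 1 gene, and CSS3 changed less than 2-fold in set1Δ. In all 100 genes that moved alike, neither 0 min library overlapped the asynchronous ones, but this comes close to following from how they were chosen.

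Alpha factor is the peptide that mating type α cells secrete. It binds the receptor Ste2 on a cells and sets off a MAP kinase cascade ending in the transcription factor Ste12, which turns on the mating genes, and in Far1, which blocks the G1 cyclin kinases. Cells therefore stop before Start, the commitment point after which the transcription factors SBF and MBF switch on the G1/S genes, histones are made in S phase, and the CLB2 cluster follows in mitosis. An asynchronous culture holds cells in all of these stages.

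The 4 libraries held 668987 to 2312642 reads, the fewest in WT at 0 min, and 5670 to 5977 features had a read. SET1 itself was at 65.7 CPM (the read count scaled to library size) in asynchronous WT, 33.2 CPM in WT at 0 min, and 15.5 and 6.63 CPM in set1Δ; these 3′ reads say little about the deletion, whose extent the labels do not give. The cells carried marks of type a: STE2, the alpha factor receptor, was at 479.9 and 356.3 CPM in the asynchronous libraries. Of 4 α-specific genes, MF(ALPHA)1 and STE3 were not among the tested features. In the asynchronous libraries of WT and set1Δ, SAG1 was at 13.6 and 19.9 CPM and MF(ALPHA)2 had 0 and 3 reads. MF(ALPHA)2 was called higher at 0 min and is described below. All 8 a-specific genes were tested, of which 7 were higher in both strains at 0 min, AGA2, ASG7 and MFA1 with a call. The other, AFB1, went from 94.1 to 74.0 CPM in WT and from 41.1 to 13.3 CPM in set1Δ (edgeR adjusted p = 0.348). The pheromone response was plain in both strains. FUS1, needed for cell fusion, went from 31.1 to 462 CPM in WT and from 16.8 to 289 CPM in set1Δ, a log2 difference of 3.99 ± 0.30 (SE, edgeR adjusted p = 0.000502), though the call was lost without the set1Δ 0 min library or asynchronous WT (up to 0.129). Of 54 tested mating genes, 28 rose and none fell, with a median log2 difference of 1.66 against −0.0176 over all tested features.

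**Figure D1:**
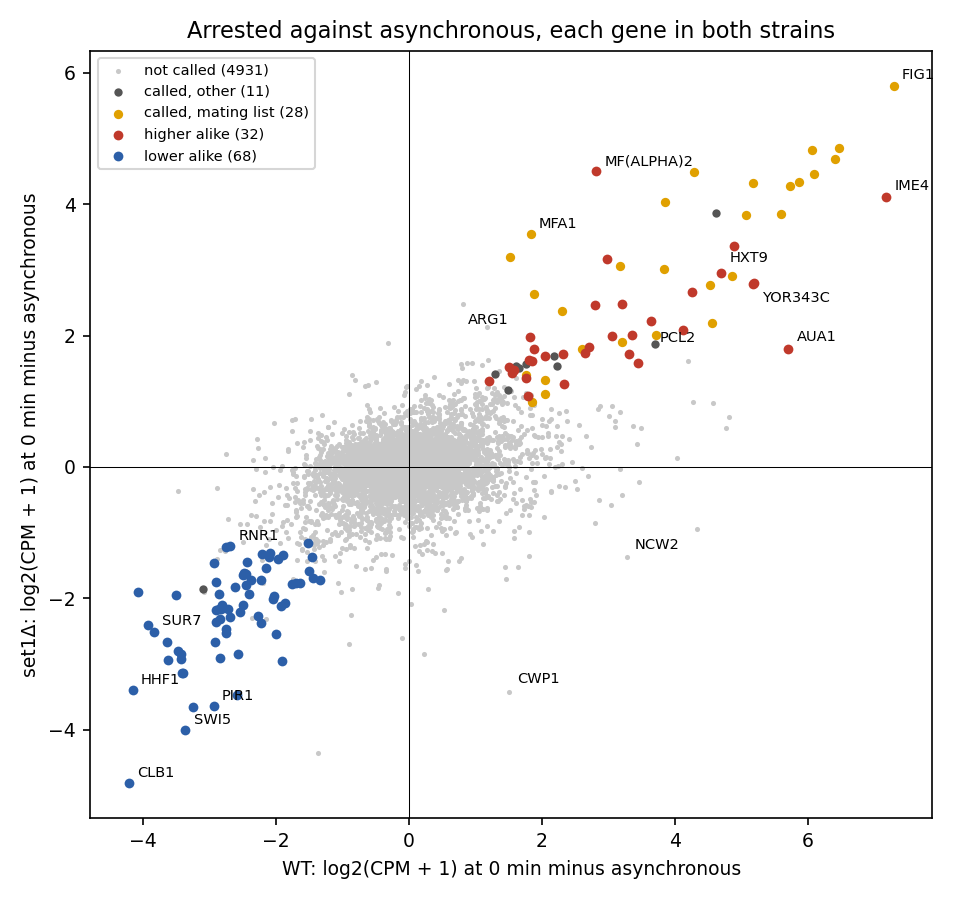
Each point is 1 of the 5070 tested features, with its log2(CPM + 1) difference, 0 min minus asynchronous, in WT (horizontal) and set1Δ (vertical). The 32 genes higher alike lie in the upper right beside the mating genes and the 68 lower alike in the lower left, while NCW2 and CWP1 had differences of opposite sign in the strains.

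Differences were more often large in WT. At least a 2-fold difference between 0 min and asynchronous was seen for 1005 features in WT and for 357 in set1Δ, and WT at 0 min is also the shallowest of the 4 libraries; the part of depth in this was not tested. The change was the larger one in WT for 27 of the 32 genes higher alike and for 49 of the 68 lower alike. Across the 5070 features the strain differences correlated with a Pearson's r of 0.551, as a description over genes, which are not independent. A 2-fold change in the same direction in both strains was seen for 107 features going up and 123 going down, and in opposite directions for 8.

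Among the genes higher alike, the cyclin gene PCL2 and an α-cell pheromone gene stood beside genes of metabolism, transport, Ty elements and unknown role. With the mating list set aside by the rule, 5 of the 32 were on any of the other gene lists examined, and 11 have a systematic name alone. Their log2 differences ran from 1.29 to 6.13, with a median of 2.53, and their mean level over the 4 libraries from 10.8 to 382 CPM.

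**Figure D2:**
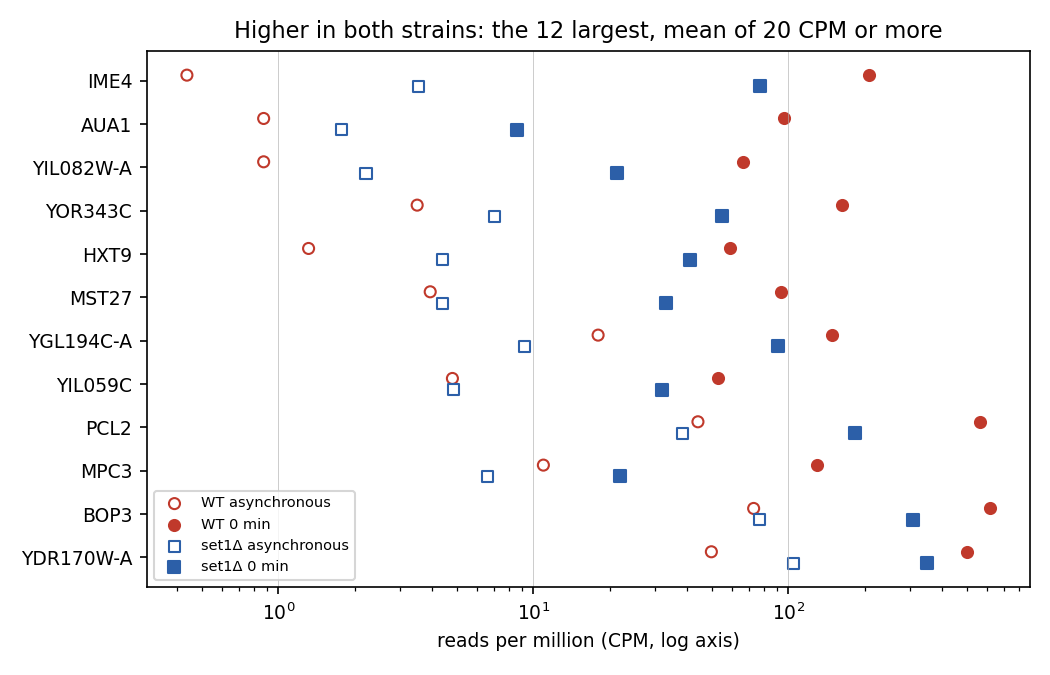
Level in CPM (log axis) in each of the 4 libraries for the 12 genes higher alike with the largest log2 difference and a mean of at least 20 CPM. Filled symbols (0 min) lie to the right of open ones (asynchronous) in both strains for every gene shown, and AUA1 and MPC3 differ most between the strains at 0 min.

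PCL2 encodes a G1 cyclin partner of the kinase Pho85 and was the one member of the G1/S list to rise. Its level went from 44.2 to 565 CPM in WT and from 38.4 to 182 CPM in set1Δ (log2 difference 2.97 ± 0.39 SE, edgeR adjusted p = 0.00384). Both 0 min libraries lay above both asynchronous ones, as in all 32 genes higher alike, which comes close to following from their choice. The call was lost when asynchronous WT was left out of a fit of all 20 libraries (edgeR adjusted p = 0.131 there). After release PCL2 fell back to 42.1 CPM in set1Δ at 30 min, while WT still held 231 CPM.

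MF(ALPHA)2 encodes a precursor of alpha factor itself, a gene that α cells normally express and a cells do not. It had 0 reads in asynchronous WT and 4 at 0 min, and 3 reads in asynchronous set1Δ and 78 at 0 min, so most of its signal came from 1 library. The log2 difference was 5.31 ± 0.66 SE (edgeR adjusted p = 0.00322), and the call was lost without the strain term or without the set1Δ library of either state (edgeR adjusted p up to 0.125). The other α-specific gene tested, SAG1, the α agglutinin, stood at 13.6 and 25.7 CPM in WT and at 19.9 and 21.2 CPM in set1Δ (edgeR adjusted p = 0.710), and was not called.

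The DNA upstream of FUS1 and MF(ALPHA)2 is shown because both windows hold the pheromone response element, the site that Ste12 recognises. Each window is 300 bases of the S288C reference (RefSeq, build R64), from 400 to 101 bases before the start codon, written 5′ to 3′ toward the gene. Capitals mark TGAAACA on either strand. There are 2 matches in each, at 187 and 160 bases before the start codon of FUS1 and at 218 and 201 bases before that of MF(ALPHA)2.
FUS1, chrIII:71403-71702, plus strand: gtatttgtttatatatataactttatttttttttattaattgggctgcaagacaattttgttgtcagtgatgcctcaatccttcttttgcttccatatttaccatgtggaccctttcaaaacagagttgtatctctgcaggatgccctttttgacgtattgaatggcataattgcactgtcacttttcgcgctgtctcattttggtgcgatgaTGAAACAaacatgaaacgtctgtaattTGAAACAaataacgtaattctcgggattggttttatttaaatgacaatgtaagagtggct
MF(ALPHA)2, chrVII:345254-345553, minus strand: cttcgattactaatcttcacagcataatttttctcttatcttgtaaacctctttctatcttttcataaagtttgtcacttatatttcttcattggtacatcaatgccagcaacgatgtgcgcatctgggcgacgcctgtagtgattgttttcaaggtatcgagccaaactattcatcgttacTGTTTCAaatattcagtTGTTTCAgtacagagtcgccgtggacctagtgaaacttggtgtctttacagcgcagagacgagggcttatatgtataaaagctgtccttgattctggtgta

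The letters TGAAACA or their reverse complement occurred in 7.53% of the 4956 upstream windows of tested genes. They were in 18 of the 28 windows of the mating genes that rose (64.3%), in 6 of the 32 windows of genes higher alike (18.8%) and in 1 of the 68 of genes lower alike (1.47%). The 6 were ARG4, HYM1, INP52, MF(ALPHA)2 and the Ty features YDR170W-A and YIL082W-A. HYM1, a component of the RAM signalling network of cell morphogenesis, rose from 27.2 to 183 CPM in WT and from 21.6 to 79.6 CPM in set1Δ (log2 difference 2.32 ± 0.33 SE, edgeR adjusted p = 0.00538). INP52, a phosphoinositide phosphatase that acts in endocytosis, rose from 25.4 to 109 CPM and from 23.4 to 77.6 CPM (log2 difference 1.91 ± 0.30 SE, edgeR adjusted p = 0.00957). A match of letters is a description and not a bound site.

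Several of the highest features sat on or beside other transcripts, and the sources used here do not say whether reads were counted by strand. IME4, an RNA methyltransferase gene of meiosis, went from 0.438 to 207 CPM in WT and from 3.53 to 77.6 CPM in set1Δ (log2 difference 5.96 ± 0.67 SE, edgeR adjusted p = 0.00290). Its whole coding region of 1803 bases is overlapped on the other strand by the noncoding RNA gene RME2, the antisense transcript of haploid cells, so the 2 transcripts cannot be told apart. In WT the level was still 107 CPM at 15 min, whereas in set1Δ it was 6.45 CPM. None of the 5 tested meiosis genes, IME1, IME2, RED1, ZIP1 and SPS4, was called by edgeR or DESeq2, and 1 was lower at an unadjusted p under 0.05 by edgeR. The other 9 genes of that list were not among the tested features.

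AUA1, named for a role in ammonia regulation of amino acid uptake, shares 167 bases with WWM1 on the opposite strand. It rose from 0.876 to 96.6 CPM in WT but only from 1.77 to 8.62 CPM in set1Δ (log2 difference 4.89 ± 0.82 SE, edgeR adjusted p = 0.0152), and the call was lost by DESeq2, by limma-voom, without the strain term and without either WT library (adjusted p up to 0.249). MST27, a membrane protein gene of the COPI vesicle pathway, is 384 bases downstream of PRM8, a mating gene that rose with a log2 difference of 3.98, and its reads were counted over a merged feature. It went from 3.94 to 93.6 CPM in WT and from 4.42 to 33.2 CPM in set1Δ (log2 difference 3.76 ± 0.45 SE, edgeR adjusted p = 0.00294). YIL059C, which overlaps YIL060W by 277 bases on the other strand, went from 4.82 to 52.8 CPM and from 4.86 to 31.8 CPM (log2 difference 3.07 ± 0.41 SE, edgeR adjusted p = 0.00423). These 3 and IME4 are therefore uncertain as to which transcript changed.

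YGL194C-A and YOR343C, small genes of unknown role, overlap no annotated gene. YGL194C-A rose from 18.0 to 148 CPM in WT and from 9.27 to 91.5 CPM in set1Δ (log2 difference 3.16 ± 0.31 SE, edgeR adjusted p = 0.00107) and kept its call under all 13 alternatives. YOR343C rose from 3.50 to 163 CPM and from 7.06 to 55.0 CPM (log2 difference 4.16 ± 0.56 SE, edgeR adjusted p = 0.00516). BOP3, a gene linked to resistance to methylmercury, rose from 73.1 to 616 CPM and from 76.8 to 309.7 CPM (log2 difference 2.54 ± 0.34 SE, edgeR adjusted p = 0.00449), also under all 13 alternatives. At 15 min its level was 332 CPM in WT, while set1Δ had 142 CPM. YOL164W-A, named after its values were seen, had 0 and 1 reads in the asynchronous libraries and 19 and 21 at 0 min.

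Hexose transporter genes from chromosome ends were also among the 32. HXT9 rose from 1.31 to 58.9 CPM in WT and from 4.42 to 41.1 CPM in set1Δ (log2 difference 4.06 ± 0.52 SE, edgeR adjusted p = 0.00353). HXT11, its near-identical copy, stood at 1.75 and 46.8 CPM in WT and at 4.86 and 23.9 CPM in set1Δ, and reads of the pair may have been split between them. YOL155W-A, which also rose, lies 107 bases from HXT11. The 13 tested genes of the list of hexose transport and glucose repression, which holds neither copy, gave no call in either direction. MPC3, a subunit of the mitochondrial pyruvate carrier, rose from 11.0 to 130 CPM in WT and from 6.62 to 21.9 CPM in set1Δ (log2 difference 2.79 ± 0.46 SE, edgeR adjusted p = 0.0114), and lost its call without the strain term or without either WT library (edgeR adjusted p up to 0.191).

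Features of Ty retrotransposons made up another group. YIL082W-A, of a Ty3 element, went from 0.876 to 66.4 CPM in WT and from 2.21 to 21.2 CPM in set1Δ (log2 difference 4.60 ± 0.64 SE, edgeR adjusted p = 0.00485). A further Ty3 feature, which joins YGR109W-B and YGR109W-A and so did not match 1 gene, had 60 and 442 reads in WT and 55 and 552 in set1Δ (log2 difference 4.29, edgeR adjusted p = 0.000502). YDR170W-A, of a Ty1 element, went from 49.9 to 503 CPM and from 105 to 350.1 CPM (log2 difference 2.51 ± 0.40 SE, edgeR adjusted p = 0.0104), though its call was lost without either 0 min library or without asynchronous WT (edgeR adjusted p up to 0.297). The 9 higher features without 1 gene name included 6 others with paired Ty names, with log2 differences of 1.33 to 1.89. Copies of a Ty are nearly identical, so which copy the reads came from is uncertain.

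The arginine pathway gave 3 of the remaining genes. ARG1, argininosuccinate synthetase, rose from 4.82 to 19.6 CPM in WT and from 15.0 to 62.3 CPM in set1Δ (log2 difference 2.04 ± 0.35 SE, edgeR adjusted p = 0.0152). ARG4, the lyase that acts next, rose from 33.3 to 101 CPM and from 41.1 to 116 CPM (log2 difference 1.55 ± 0.28 SE, edgeR adjusted p = 0.0200). ORT1, which exports ornithine from mitochondria for arginine synthesis, rose from 15.8 to 104 CPM and from 19.0 to 65.7 CPM (log2 difference 2.24 ± 0.35 SE, edgeR adjusted p = 0.00870). ARG1 was called under 6 of 12 alternatives and ARG4 under 8 of 13; both missed the threshold in each fit that left out a library (adjusted p up to 0.364 and 0.717). Of 24 tested genes of the Gcn4 amino acid list, these 2 rose and none fell, and the list median was 0.37.

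Gcn4, the activator of amino acid synthesis genes, recognises TGACTC. The windows of ARG1 and ORT1 are shown because both genes rose and both hold that site, in capitals, with 2 matches in ARG1 and 1 in ORT1. The letters or their reverse complement were in 8.64% of all windows, in 4 of 32 windows of genes higher alike (12.5%; ARG1, ARG4, ORT1 and PMU1) and in 2 of 68 of genes lower alike (2.94%).
ARG1, chrXV:218811-219110, plus strand: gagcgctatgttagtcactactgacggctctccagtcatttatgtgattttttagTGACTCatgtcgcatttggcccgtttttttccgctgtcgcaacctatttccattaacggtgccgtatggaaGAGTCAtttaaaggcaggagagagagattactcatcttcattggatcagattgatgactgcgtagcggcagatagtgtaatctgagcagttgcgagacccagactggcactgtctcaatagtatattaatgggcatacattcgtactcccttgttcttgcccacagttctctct
ORT1, chrXV:570908-571207, minus strand: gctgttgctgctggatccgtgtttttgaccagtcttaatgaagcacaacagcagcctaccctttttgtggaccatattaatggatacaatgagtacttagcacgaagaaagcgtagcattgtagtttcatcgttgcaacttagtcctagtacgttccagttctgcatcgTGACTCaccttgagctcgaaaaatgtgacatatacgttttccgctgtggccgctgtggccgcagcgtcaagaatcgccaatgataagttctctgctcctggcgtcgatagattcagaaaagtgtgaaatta

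Further genes higher alike, chosen for naming after their values were seen as were HYM1, INP52, ORT1 and YHP1, had varied roles and smaller changes. PMU1, a phosphomutase homolog, rose from 159 to 797 CPM in WT and from 132 to 441 CPM in set1Δ (log2 difference 2.03 ± 0.31 SE, edgeR adjusted p = 0.00850). ECL1, known for extending chronological lifespan, rose from 36.3 to 137 CPM and from 39.3 to 139 CPM (log2 difference 1.86 ± 0.28 SE, edgeR adjusted p = 0.00719), nearly the same in the strains. KRE6, an enzyme of beta-glucan synthesis and the 1 of 18 chitin and glucan synthesis genes called higher, had the smallest change in its weaker strain, from 63.9 to 223 CPM in WT and from 53.4 to 114 CPM in set1Δ (log2 difference 1.45 ± 0.30 SE, edgeR adjusted p = 0.0395), and was called under 8 of 13 alternatives. HAP1, the heme-responsive activator, and APC9, a subunit of the anaphase-promoting complex, were also higher alike, with log2 differences of 1.495 and 1.56. HAP1 went from 124 to 364 CPM in WT and from 188 to 510 CPM in set1Δ. The paired Ty feature YDR098C-B/YDR098C-A went from 125 to 424 CPM in WT and from 187 to 557 CPM in set1Δ. Whether reads of a Ty were counted under HAP1 was not tested. YNL033W, YNL146C-A, YDR249C and DPI8, whose roles are not described here, had log2 differences of 1.78 to 3.15.

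Of the 68 genes lower alike, 41 were on at least 1 of the lists, of the cell cycle, the cell wall, polarity or stress. The share of all tested features on a list is not given here, and the lists were chosen with earlier results of these data known. In bulk samples fewer cells of a stage and less RNA per cell cannot be told apart here. Log2 differences ran from −4.84 to −1.33 with a median of −2.36. Genes of the division cycle are taken first, in the order of its stages.

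**Figure D3:**
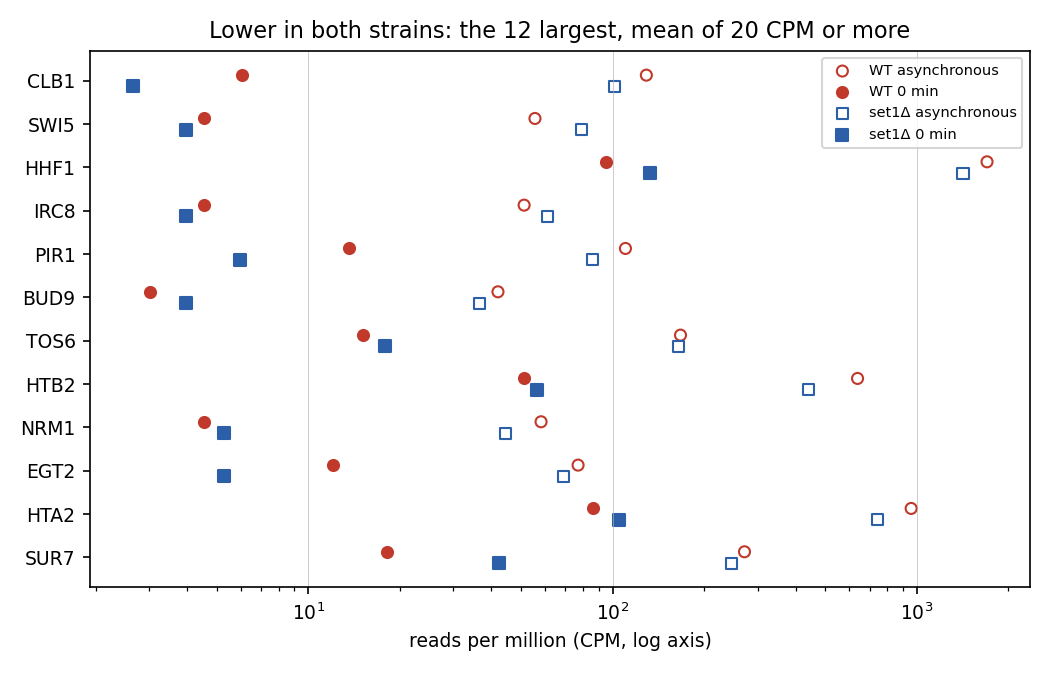
Level in CPM (log axis) in each of the 4 libraries for the 12 genes lower alike with the largest fall and a mean of at least 20 CPM. Filled symbols (0 min) lie to the left of open ones (asynchronous) in both strains for every gene shown, and the strains lie close together in the asynchronous state.

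Of the 7 tested Start regulators, 1 was called. CLN3, the upstream G1 cyclin, was at 102 and 246 CPM in WT and at 77.7 and 158 CPM in set1Δ, with the 0 min value second, and missed the threshold (log2 difference 1.15 ± 0.28 SE, edgeR adjusted p = 0.0716), though it passed in 4 of 13 alternatives. CLN2, a G1 cyclin driven by SBF and on the G1/S list like CLN1, was at 171 and 45.3 CPM in WT and at 148 and 82.2 CPM in set1Δ (edgeR adjusted p = 0.0888). CLN1, its paralog, was at 70.1 and 33.2 CPM and at 46.8 and 28.5 CPM (edgeR adjusted p = 0.252). SIC1, the inhibitor of Clb kinases, was the one called: it fell from 192 to 69.4 CPM in WT and from 181 to 69.6 CPM in set1Δ (log2 difference −1.42 ± 0.28 SE, edgeR adjusted p = 0.0317), and lost its call in each fit that left out a library (edgeR adjusted p up to 0.211).

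Of the 19 tested G1/S genes, the targets of SBF and MBF, 9 fell and PCL2 rose, and the median was −1.65. NRM1, the repressor that turns MBF targets off, fell from 58.2 to 4.53 CPM in WT and from 44.6 to 5.31 CPM in set1Δ (log2 difference −3.28 ± 0.40 SE, edgeR adjusted p = 0.00319). PCL1, a Pho85 cyclin and close relative of PCL2, fell from 154 to 19.6 CPM and from 123 to 18.6 CPM (log2 difference −2.83 ± 0.31 SE, edgeR adjusted p = 0.00184). The 2 Pho85 cyclins thus went in opposite directions in both strains. YOX1, a repressor of early G1 genes, and CLB6, an S phase cyclin, also fell, with log2 differences of −2.55 and −2.36. YHP1, the paralog of YOX1 and not on the list, fell from 86.3 to 6.04 CPM in WT and from 98.0 to 14.6 CPM in set1Δ (log2 difference −3.08 ± 0.38 SE, edgeR adjusted p = 0.00322). NRM1 missed the threshold without the set1Δ 0 min library (edgeR adjusted p = 0.0602), and PCL1 in each fit that left out a library (up to 0.170).

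The upstream windows of CLB6 and RNR1 are shown because both genes fell and both hold the MCB, the site of MBF, ACGCGT, in capitals. It occurred in 4.28% of all windows, in 10 of 68 windows of genes lower alike (14.7%) and in none of the 32 of genes higher alike. The 10 were CDC6, CLB6, ELO1, GIN4, HTA2, HTB2, MCD1, PLB2, RNR1 and RTT107. The SCB, CGCGAAA, the site of SBF, occurred in 4.88% of all windows, in 14 of 68 lower alike (20.6%), PCL1 and SWE1 among them, and in 3 of 32 higher alike (9.38%), PCL2 among them. An MCB and an SCB overlapped in 2 of the 4956 windows.
CLB6, chrVII:706602-706901, minus strand: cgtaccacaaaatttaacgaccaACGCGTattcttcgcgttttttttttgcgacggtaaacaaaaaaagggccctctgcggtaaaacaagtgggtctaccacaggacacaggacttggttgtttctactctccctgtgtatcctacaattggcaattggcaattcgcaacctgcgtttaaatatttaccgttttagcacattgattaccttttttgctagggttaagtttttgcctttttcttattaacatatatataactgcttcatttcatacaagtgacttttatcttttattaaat
RNR1, chrV:298550-298849, plus strand: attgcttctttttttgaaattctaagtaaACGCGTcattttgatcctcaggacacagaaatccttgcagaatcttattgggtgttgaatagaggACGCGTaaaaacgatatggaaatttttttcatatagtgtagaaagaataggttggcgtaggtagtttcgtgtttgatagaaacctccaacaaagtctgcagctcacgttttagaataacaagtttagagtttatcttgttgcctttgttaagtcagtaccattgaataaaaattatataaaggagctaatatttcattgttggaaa

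Among the DNA replication and repair genes RNR1 and MCD1 fell. RNR1, the large subunit of ribonucleotide reductase, which makes deoxynucleotides, fell from 219 to 33.2 CPM in WT and from 197 to 84.9 CPM in set1Δ (log2 difference −1.87 ± 0.39 SE, edgeR adjusted p = 0.0383). Its call was lost without the strain term, in the fit of all 20 libraries and with any library left out (edgeR adjusted p up to 0.750). MCD1, the cohesin subunit cleaved at anaphase, fell from 152 to 19.6 CPM and from 117 to 25.2 CPM (log2 difference −2.52 ± 0.33 SE, edgeR adjusted p = 0.00384), and it too missed the threshold with any library left out (up to 0.337). These were 2 of 26 tested replication and repair genes, none rose, and the median was −0.59. In the licensing list, CDC6, the loader of the Mcm helicase, was the 1 of 14 called, with 28.9 and 3.02 CPM in WT and 33.6 and 9.28 CPM in set1Δ (log2 difference −2.23 ± 0.45 SE, edgeR adjusted p = 0.0334). CDC6 was called under 7 of 12 alternatives (adjusted p up to 0.147).

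All 9 histone genes fell, with a median of −2.57. HHF1, a histone H4 gene, fell from 1702 to 95.1 CPM in WT and from 1419 to 133 CPM in set1Δ (log2 difference −3.77 ± 0.38 SE, edgeR adjusted p = 0.00107). HTB2, of histone H2B, fell from 639 to 51.3 CPM and from 441 to 56.4 CPM (log2 difference −3.28 ± 0.33 SE, edgeR adjusted p = 0.00107). HTA2, of H2A, fell from 959 to 86.1 CPM and from 744 to 105 CPM (log2 difference −3.13 ± 0.35 SE, edgeR adjusted p = 0.00180). These 3 held their calls in all 13 alternatives, whereas HTA1 missed the threshold without the WT 0 min library (edgeR adjusted p = 0.0660). The smallest falls were those of HHO1, the linker histone, from 155 to 42.3 CPM and from 148 to 34.5 CPM, and of HHT2. The core histone genes lie in divergent pairs, 646 to 817 bases apart, and the copies of each histone are so alike that reads may be split between them. HTZ1, the variant H2A.Z, lay just past the threshold: it was at 346 and 131 CPM in WT and at 284 and 132 CPM in set1Δ (log2 difference −1.25, edgeR adjusted p = 0.0504).

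The lowest gene of all was a mitotic cyclin. CLB1 fell from 129 to 6.04 CPM in WT and from 101.5 to 2.65 CPM in set1Δ (log2 difference −4.84 ± 0.42 SE, edgeR adjusted p = 0.000555). SWI5, a transcription factor made in G2 and M, fell from 55.6 to 4.53 CPM and from 79.0 to 3.98 CPM (log2 difference −4.05 ± 0.42 SE, edgeR adjusted p = 0.00122). BUD4, which marks the axial budding site, fell from 48.6 to 6.04 CPM and from 57.0 to 11.9 CPM (log2 difference −2.49 ± 0.37 SE, edgeR adjusted p = 0.00701). All 3 were called under all 13 alternatives. Of the 18 tested members of the CLB2 cluster, 10 fell, none rose, and the median was −1.59, with CDC5, CHS2, MYO1, KIN3, ALK1 and HST3 also among those that fell. CLB2 itself was not among the tested features, so its level is not given. CLB1 and CLB6 lie tail to tail with 307 bases between them, so reads near their ends could be shared if strand was not used.

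The window upstream of SWI5 is shown with the forkhead site GTAAACAA in capitals, which Fkh1 and Fkh2 recognise at CLB2 cluster genes. It occurred in 2.97% of all windows, in 9 of 68 of genes lower alike (13.2%), among them BUD4, IRC8 and NUD1, and in none of the 32 of genes higher alike. CLB1 has no match in its window.
SWI5, chrIV:750843-751142, minus strand: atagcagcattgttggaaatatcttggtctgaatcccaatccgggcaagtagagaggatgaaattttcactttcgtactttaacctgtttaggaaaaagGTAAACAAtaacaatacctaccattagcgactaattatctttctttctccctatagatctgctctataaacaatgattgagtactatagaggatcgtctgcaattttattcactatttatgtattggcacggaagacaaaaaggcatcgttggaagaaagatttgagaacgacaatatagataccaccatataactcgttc

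Of 23 tested spindle and kinetochore genes, edgeR and DESeq2 called none, with 1 higher and 6 lower at an unadjusted p under 0.05 by edgeR. Of all 5070 features, 6.63% were higher and 5.42% lower at that p. Of the 23 genes 16 were lower in both strains, against 29.7% of all features, and the list median was −0.52. Outside the lists, IRC8, a bud tip gene of unclear role, fell from 51.2 to 4.53 CPM in WT and from 61.4 to 3.98 CPM in set1Δ (log2 difference −3.76 ± 0.41 SE, edgeR adjusted p = 0.00171). SUR7, a protein of the eisosome patches in the plasma membrane, fell from 272 to 18.1 CPM and from 246 to 42.4 CPM (log2 difference −3.09 ± 0.38 SE, edgeR adjusted p = 0.00322). TOS6, a cell wall protein gene, fell from 167 to 15.1 CPM and from 165 to 17.9 CPM (log2 difference −3.30 ± 0.32 SE, edgeR adjusted p = 0.00105). SUR7 held under all 13 alternatives, IRC8 missed the threshold without the set1Δ 0 min library (0.0847), and TOS6 without either 0 min library or asynchronous WT (edgeR adjusted p up to 0.124).

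Genes of cell separation and early G1 came out mixed. EGT2, an early G1 gene of cell separation, fell from 77.1 to 12.1 CPM in WT and from 68.9 to 5.31 CPM in set1Δ (log2 difference −3.20 ± 0.40 SE, edgeR adjusted p = 0.00322). PCL9, another Pho85 cyclin, fell from 39.9 to 6.04 CPM and from 34.4 to 6.63 CPM (log2 difference −2.49 ± 0.40 SE, edgeR adjusted p = 0.0103), and DSE3 and DSE4 fell with log2 differences of −2.40 and −2.34. Other genes of these stages were not called: AMN1, an antagonist of the mitotic exit network, was at 426 and 1010 CPM in WT and at 412 and 799 CPM in set1Δ (log2 difference 1.10, edgeR adjusted p = 0.133), and the chitinase gene CTS1 was at 70.1 and 67.9 CPM and at 62.3 and 81.6 CPM. EGT2 missed the threshold without the set1Δ 0 min or the WT asynchronous library (edgeR adjusted p up to 0.116), PCL9 and DSE3 with any library left out (up to 0.133 and 0.335).

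PIR1, a glucan-linked wall protein, fell from 110.3 to 13.6 CPM in WT and from 85.7 to 5.97 CPM in set1Δ (log2 difference −3.44 ± 0.38 SE, edgeR adjusted p = 0.00180), and its relative CIS3 fell from 1076 to 397 CPM and from 965 to 298 CPM (log2 difference −1.57 ± 0.32 SE, edgeR adjusted p = 0.0340). They were the 2 of 19 tested genes of the cell wall integrity list that were called. BUD9, a landmark protein for choosing the bud site in diploids, fell from 42.0 to 3.02 CPM and from 36.6 to 3.98 CPM (log2 difference −3.38 ± 0.44 SE, edgeR adjusted p = 0.00401), alone among 22 tested polarity and septin genes. GAS3, of the beta-glucan transferase family and the 1 of 18 chitin and glucan synthesis genes called lower, fell from 103 to 18.1 CPM and from 106 to 29.8 CPM (log2 difference −2.10 ± 0.33 SE, edgeR adjusted p = 0.00880). BUD9 and GAS3 held in every alternative run, 12 and 13, while PIR1 and CIS3 missed the threshold without the set1Δ 0 min library, and PIR1 also without asynchronous WT (edgeR adjusted p up to 0.102 for PIR1 and 0.0519 for CIS3).

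YGP1, a secreted glycoprotein gene that responds to nutrient stress, was the only one of 18 stress response genes to be called. It fell from 450.1 to 75.5 CPM in WT and from 310.4 to 42.4 CPM in set1Δ (log2 difference −2.72 ± 0.29 SE, edgeR adjusted p = 0.00160), while the list median was 1.40 in WT and −0.27 in set1Δ. By 15 min after release it had returned to 541 CPM in WT and 306 CPM in set1Δ. The call was lost without either 0 min library or asynchronous WT (edgeR adjusted p up to 0.174). YCR090C, a gene of unknown role, fell from 98.1 to 12.1 CPM and from 85.7 to 30.5 CPM (log2 difference −2.05 ± 0.39 SE, edgeR adjusted p = 0.0252), and it ends 51 bases from the end of FIG2, a mating gene on the opposite strand that rose with a log2 difference of 5.56. It is the only gene lower alike with a called mating gene within 1000 bases.

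The other genes lower alike, also named after their values were seen, had log2 differences between −4.57 and −1.67 where named here. HPF1, a cell wall mannoprotein gene, had 22 and 31 reads in the asynchronous libraries and 0 and 1 at 0 min (log2 difference −4.57 ± 0.88 SE, edgeR adjusted p = 0.0252). WSC4, a sensor of the cell wall integrity pathway, fell from 117 to 6.04 CPM in WT and from 79.5 to 20.6 CPM in set1Δ (log2 difference −2.70 ± 0.47 SE, edgeR adjusted p = 0.0158). AIM44, a bud neck protein gene that helps keep the new bud off the old site, fell from 59.1 to 15.1 CPM and from 57.8 to 6.63 CPM (log2 difference −2.57 ± 0.39 SE, edgeR adjusted p = 0.00860). Its fall was larger in set1Δ, unlike that of most of the 68.

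Membrane, lipid and DNA repair genes were also among them. CTR1, the copper transporter of the plasma membrane, fell from 177 to 25.7 CPM in WT and from 158 to 67.0 CPM in set1Δ (log2 difference −1.89 ± 0.39 SE, edgeR adjusted p = 0.0385). VCX1, the vacuolar calcium and proton exchanger, fell from 233 to 49.8 CPM and from 166 to 65.7 CPM (log2 difference −1.75 ± 0.33 SE, edgeR adjusted p = 0.0213). ELO1, a fatty acid elongase, and PLB2, a phospholipase B, fell with log2 differences of −2.004 and −2.43. SRS2, a helicase that takes apart recombination intermediates, fell from 51.2 to 7.55 CPM and from 59.2 to 15.9 CPM (log2 difference −2.18 ± 0.36 SE, edgeR adjusted p = 0.0121), and REV1, of translesion synthesis, and RTT107, of the response to damaged replication forks, fell with log2 differences of −1.67 each. VAC17, which carries the vacuole into the bud, and RAX2, which helps choose the bud site, fell by 2.04 and 1.98 on the log2 scale.

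Among lists of growth and metabolism, 15 gave no call by edgeR: ribosomal proteins (139 tested), ribosome biogenesis (59), mitochondrial ribosomal proteins (66), proteasome (32), respiratory chain (29), ergosterol (24), glycolysis (16), methionine and sulfate (16), protein mannosylation (16), trehalose and glycogen (14), iron uptake (14), hexose transport and glucose repression (13), purine synthesis (11), phosphate (9) and RNA polymerase I (8). At an unadjusted p under 0.05 by edgeR the 15 lists held 14 higher and 12 lower of 466 genes, against 6.63% higher and 5.42% lower of all 5070 features. The 15 were grouped for having no call, so a share below that of all features partly follows from the choice. The Gcn4 amino acid list, which had calls, was left out, and 7 of its 24 genes were higher and 0 lower at that p. Among the 466 genes, 6 methionine and sulfate genes and 3 glycolysis genes were higher and 4 iron uptake genes lower. DESeq2 called 1 ergosterol gene and 1 glycolysis gene higher and 1 iron uptake gene lower, and none in the other lists. Of the 16 methionine and sulfate genes, none of them called, 11 were higher in both strains, against 29.2% of all features, and the medians were 0.69 in WT and 0.60 in set1Δ. STR3, a cystathionine beta-lyase gene, had the largest log2 difference of that list, 1.30 (edgeR adjusted p = 0.247), and MET2, which starts homocysteine synthesis, had 1.24 (edgeR adjusted p = 0.0776). Ribosome biogenesis genes had a median of −0.67 in WT and 0.03 in set1Δ. The 139 genes counted as ribosomal proteins hold RPP1, which encodes a subunit of RNase P and not a ribosomal protein.

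**Figure D4:**
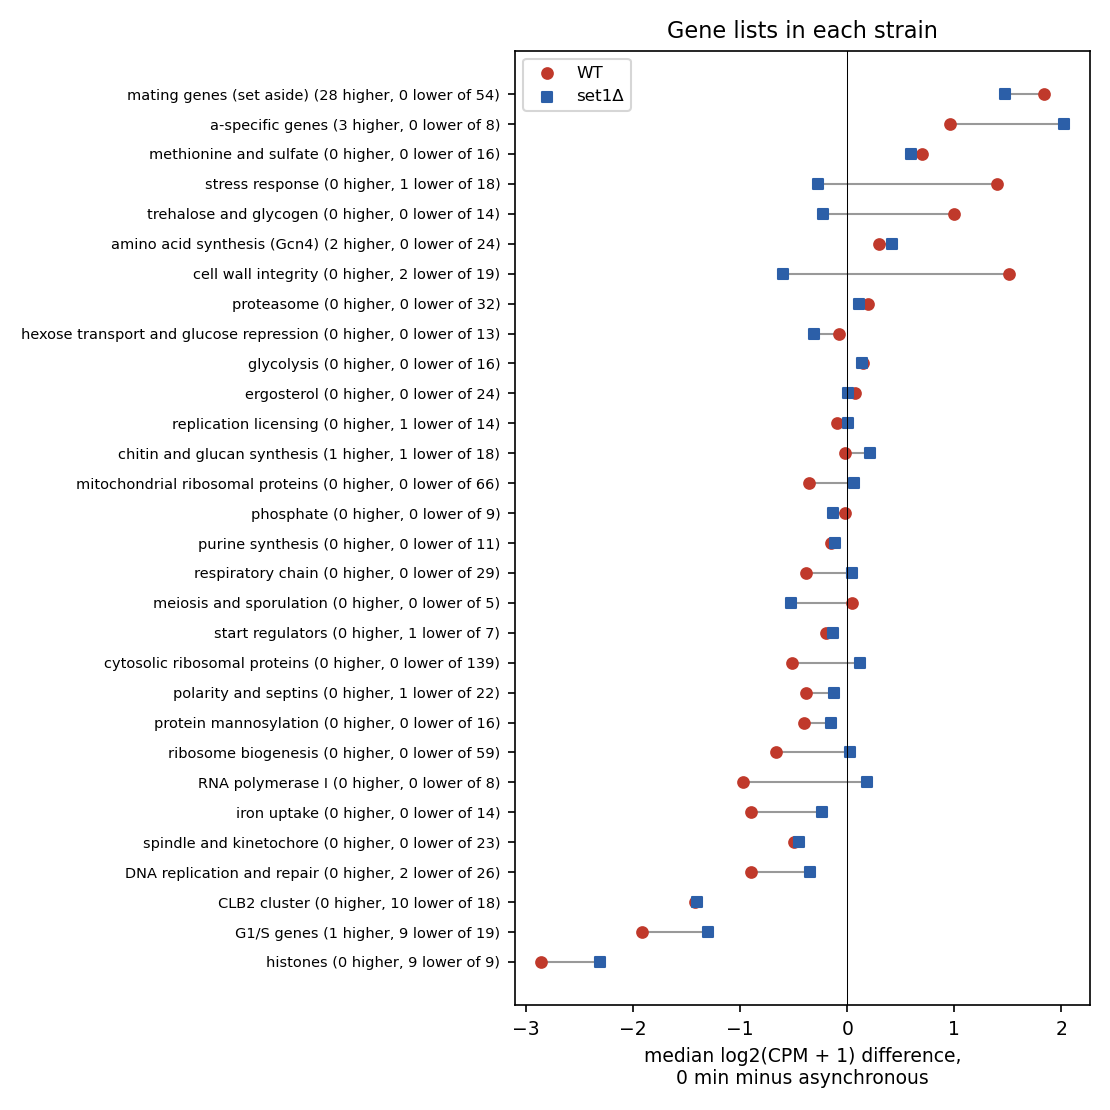
Median log2(CPM + 1) difference, 0 min minus asynchronous, over the tested members of each list with at least 5 of them, in WT (circles) and set1Δ (squares), with the number called higher and lower beside the list's name. Histones, G1/S genes and the CLB2 cluster lie below 0 in both strains, whereas cell wall integrity, stress response and trehalose and glycogen genes have medians of opposite sign in the strains.

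The release libraries, which had no part in choosing the genes, show where these levels went. The asynchronous libraries they are set against did have a part, so medians of genes moving alike are not independent of the choice. On the scale of log2 against each strain's own asynchronous library, the median of the genes lower alike was −2.60 in WT and −2.11 in set1Δ at 0 min, −0.85 and −0.23 at 30 min, and −0.18 and −0.06 at 90 min. Histones were at or above the asynchronous level by 30 min, at 0.19 in WT and 1.01 in set1Δ, and low again at 75 min, at −2.28 and −1.96. G1/S genes had their highest value up to 60 min at 30 min in WT (0.76) and at 15 min in set1Δ (1.47), and the CLB2 cluster at 60 min in both (0.68 and 0.83). With 1 library a time and strain these are descriptions.

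The median of the genes higher alike came down after release in both strains from different levels at 0 min, and the difference between the strains was not tested. It was 2.79 in WT and 1.80 in set1Δ at 0 min, 1.44 and 0.48 at 60 min, and 0.86 and 0.11 at 120 min. The mating genes were at 1.83 and 1.47 at 0 min and at 0.42 and −0.25 at 60 min. CLB1 passed from 5.92 CPM at 0 min to 206 CPM at 60 min in WT and from 2.58 to 176 CPM in set1Δ, and PIR1 from 13.3 CPM to 201 CPM at 75 min in WT and from 5.80 to 356 CPM in set1Δ, on the scaling of all 20 libraries.

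**Figure D5:**
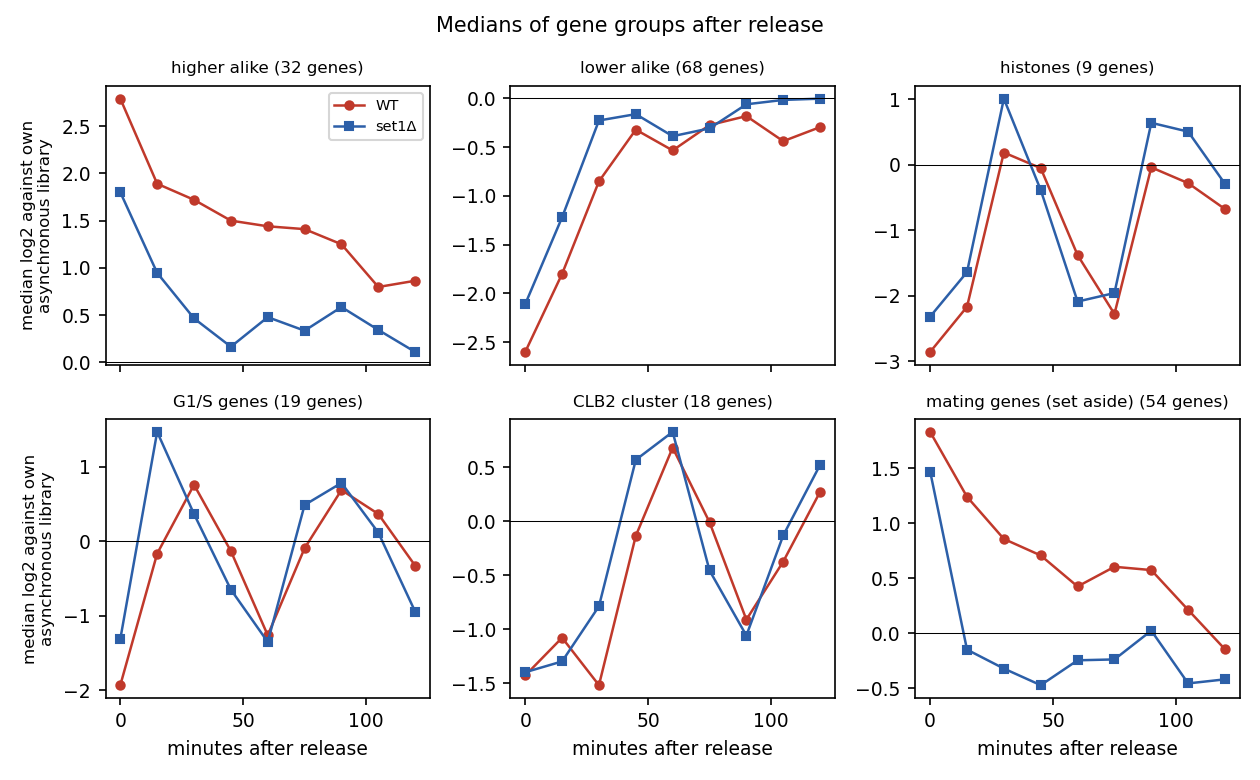
Median over genes of log2(CPM + 1) against the strain's own asynchronous library (vertical) by minutes after release (horizontal), for 6 gene groups in WT (circles) and set1Δ (squares), 1 library a point. The median of the genes higher alike stays above the asynchronous level in both strains throughout, and that of the mating genes in WT until 105 min. The groups of the division cycle rise and fall again, G1/S genes and histones before the CLB2 cluster. Up to 60 min, G1/S genes and histones are both highest at 30 min in WT. In set1Δ the G1/S genes are highest at 15 min and histones at 30 min.

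Poly(A) tail length, which the protocol reads out for the same transcripts, gave no call between the states. Of 3974 features with at least 10 tailed reads in each library, limma called none longer and none shorter (0 and 0%), with 48 longer and 252 shorter at an unadjusted p under 0.05. The median difference was −1.15 nt, at −1.19 nt in WT and −1.14 nt in set1Δ, and 1827 features were shorter in both strains against 473 longer in both. The 19 genes higher alike that could be measured had a median difference of 0.87 nt, at 2.02 nt in WT and 0.38 nt in set1Δ. The 30 lower alike had −0.04 nt, with opposite signs in the strains, at 0.72 nt in WT and −0.70 nt in set1Δ; the other 38 genes lower alike had fewer than 10 tailed reads in a library. In the fit of all 20 libraries without the set1Δ 0 min library, 1 feature was called longer.

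At the edge of the thresholds, GIN4, a kinase of the septin ring, was the last gene inside on the lower side, at 109.5 and 37.7 CPM in WT and 139 and 61.7 CPM in set1Δ (edgeR adjusted p = 0.0498). On the higher side, YOR192C-C, a Ty feature, had the largest adjusted p among the genes moving alike (edgeR, 0.0479). YAR010C, also of a Ty, was just past the threshold for a call (edgeR adjusted p = 0.0504). CSS3, with 56.1 and 205 CPM in WT and 45.5 and 91.5 CPM in set1Δ, was called but fell short of 2-fold in set1Δ, at 0.99 on the log2(CPM + 1) scale. The counts depended on single libraries: without asynchronous WT, in the fit of all 20 libraries, 15 features were higher and 31 lower; without WT at 0 min 55 and 38; without set1Δ at 0 min 109 and 50; and without asynchronous set1Δ 98 and 63.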

How the data were processed

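Poly(A)-tailed RNA was read from its 3′ end by PAT-seq from 1 µg of total RNA. Tables deposited by the authors hold, for 20 libraries, the read count of each feature, the count of its tailed reads, and its mean tail length in nucleotides. Bowtie, Bowtie2 2.2.5 and the build sacCer3 are listed, without their roles, in the submitters' processing notes; the counter, its strand setting and its filters are not given in the sources used here. All columns were used where needed (0 not used).

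From the deposited counts, the 4 libraries at 0 min and asynchronous were fitted with edgeR 4.0.16 in R 4.3.3 (TMM scaling, robust quasi-likelihood test, strain as the pair) over the 5070 features with a mean of at least 10 reads, with Benjamini-Hochberg adjustment and a threshold of 0.05. With 1 culture per strain and state, 1 residual degree of freedom remains per feature. To it edgeR adds a median of 7.88 prior degrees of freedom borrowed across features. The p-values set the mean arrest effect of the 2 strains against its spread, estimated with these degrees of freedom. The pairing comes from the strain. Deviations of same-strain libraries from their group means correlated at 0.134 over the 5070 features. Strain differences are on the log2(CPM + 1) scale. Tail lengths with at least 10 tailed reads in each library were tested with limma 3.58.1.

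Of the 6532 features, 5861 matched 1 gene of the R64 annotation, 70 matched several and 601 none. The named genes are the 12 highest and 12 lowest genes that moved alike with a mean of at least 20 CPM, up to 3 called genes of each of 32 lists, and 10 genes of fixed interest; other genes were named after their values were seen. Results that need items withheld here, 1 of the lists among them, are not reported here. The members and lists were chosen with earlier results of these data known. Alternatives were other scalings, DESeq2 1.42.0, limma-voom, other count minimums, the fit without strain, all 20 libraries, tailed reads only, and leaving out each library. The fits were tested on simulated data.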

Additional observations from a re-analysis of the deposited data

Results flagged for a closer look

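In 4 gene lists with at least 5 tested members the medians had opposite signs in WT and set1Δ and lay at least 1 apart on the log2(CPM + 1) scale; the difference was not tested for any of them. The median of the cell wall integrity genes was 1.51 in WT and −0.60 in set1Δ, 2.11 higher in WT. The median of the stress response genes was 1.40 in WT and −0.27 in set1Δ, 1.67 higher in WT. The median of the trehalose and glycogen genes was 1.00 in WT and −0.23 in set1Δ, 1.23 higher in WT. The median of the RNA polymerase I genes was −0.97 in WT and 0.18 in set1Δ, a WT minus set1Δ difference of −1.15.

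In 7 genes the level at 0 min was at least 2-fold above asynchronous in WT and at least 2-fold below it in set1Δ; with 1 library per strain and state the difference was not tested. CWP1, a cell wall mannoprotein gene, was at 828 and 2353 CPM in WT and at 757 and 69.6 CPM in set1Δ, a log2 difference 4.93 higher in WT. NCW2, another cell wall gene, was at 160 and 1553 CPM in WT and at 117.0 and 44.4 CPM in set1Δ, 4.65 higher in WT. CTT1, cytosolic catalase, was at 8.32 and 31.7 CPM and at 8.39 and 2.65 CPM, 3.17 higher in WT. CAR2, an arginine breakdown enzyme, was at 84.1 and 232 CPM and at 84.8 and 25.2 CPM, also 3.17 higher in WT. YPS3, a surface protease, was at 126 and 396 CPM and at 129.8 and 44.4 CPM, 3.16 higher in WT. HSP12, a small membrane-protecting heat shock protein, was at 160.3 and 441 CPM and at 108 and 37.1 CPM, 2.97 higher in WT. TOS7 was at 104 and 226 CPM and at 103 and 45.1 CPM, 2.30 higher in WT.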

How the results depend on the processing

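The count of 70 higher and 69 lower features came to 67 and 65 with RLE scaling, 64 and 65 with library size alone, 80 and 64 by DESeq2, 95 and 83 by limma-voom, and 69 and 72 with a mean of at least 50 reads. It came to 104 and 106 with no count minimum, 142 and 93 with all 20 libraries, and 109 and 96 with tailed reads only. Without the strain term (no replicate block) 53 were higher and 61 lower, and 24 and 60 genes moved alike in place of 32 and 68. With the mating list kept, 59 genes were higher alike. Leaving out 1 library at a time from the fit of all 20 gave 15 to 109 higher features, 31 to 63 lower, 6 to 74 genes higher alike and 31 to 62 lower alike; without WT at 0 min, 38 features were lower and 19 and 38 genes moved alike. With a library of one strain gone, alike rests on the other strain. The cause of these shifts was not tested. DESeq2 called 61 of the 70 higher features and 55 of the 69 lower ones. No result changed sign under any alternative run. For tails, 0 to 1 features were longer with a library left out; the median difference of −1.15 nt was −1.03 nt with at least 30 tailed reads, and −1.14 to −1.19 nt with a strain left out. WT at 0 min has 668987 reads, of which MF(ALPHA)2 has 4, and depth limits such low genes. With 1 culture per strain and state, arrest and culture cannot be told apart within a strain.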
